A study of Mus musculus with 8 samples.

Results

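Chromatin immunoprecipitation peaks that lie far from genes were examined in mouse oligodendrocytes. A peak was counted as gene-distant when its centre fell outside every protein-coding gene and more than 50 kb from the nearest one, by the RefSeq gene spans of the mouse assembly GRCm38. Of 109649 peaks in 6 lists, 11255 were gene-distant, and they merged into 5537 separate sites with a median width of 220 bp. Differentiated oligodendrocytes were derived from FvB/C57BL6 hybrid neural stem cells at passage 7, and all of them, input included, carried introduced PPARb (HA-PPAR in the sample names). Their Neurobasal medium with B-27 held GlutaMAX-I at 2 mM, the growth factor IGF-1 at 100 ng/mL and the thyroid hormone triiodothyronine at 50 ng/mL. The 4 antibody libraries from these cells used a home-made antibody to Qki-5 and antibodies to PPARb, the HA tag and RNA polymerase II (Pol II), against 1 input library. Isolated oligodendrocytes came from C57BL6 mouse brain, were taken on O4 magnetic beads without culture passages, and gave a Qki-5 and a PPARb library against their own input. Each antibody was used on 1 library per cell source, so no difference below has a replicate check, and every interval covers counting error alone. Within 1 cell source all lists share 1 input library. The PPARb antibody cannot separate the introduced protein from the cells' own.

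Qki-5 is the nuclear isoform of Quaking, an RNA-binding protein of the STAR family that glial cells need for myelin formation. PPARb is a nuclear receptor that binds DNA with a retinoid X receptor, responds to fatty acids and activates genes of lipid use. DNA far from any gene can hold enhancers, elements that bind transcription factors and act on promoters over long distances, and it also holds starts of long non-coding RNAs (lncRNAs) and of microRNA precursors. Pol II can be found at active enhancers as well as at promoters.

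The gene-distant peaks included a small set at starts of lncRNAs, and the 5 promoters that overlapped such peaks in at least 5 lists are printed because the lists meet there most often. Each window runs from 250 bases before to 50 bases after the RefSeq start (GRCm38.p6), 5′ to 3′ on the strand of the gene, and capitals mark the hexamer AGGTCA or its complement TGACCT, the core motif read by nuclear receptors such as PPARb. They were chosen after their peaks had been seen.
Gm34507 (chr17:4908072-4908371, plus strand): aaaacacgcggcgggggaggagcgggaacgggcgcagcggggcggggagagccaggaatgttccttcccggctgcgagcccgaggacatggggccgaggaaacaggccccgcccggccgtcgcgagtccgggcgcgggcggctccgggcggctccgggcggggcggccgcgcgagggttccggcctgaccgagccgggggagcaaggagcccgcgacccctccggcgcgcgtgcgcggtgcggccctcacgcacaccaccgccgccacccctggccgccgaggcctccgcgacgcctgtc
1700064M15Rik (chr12:99627925-99628224, minus strand): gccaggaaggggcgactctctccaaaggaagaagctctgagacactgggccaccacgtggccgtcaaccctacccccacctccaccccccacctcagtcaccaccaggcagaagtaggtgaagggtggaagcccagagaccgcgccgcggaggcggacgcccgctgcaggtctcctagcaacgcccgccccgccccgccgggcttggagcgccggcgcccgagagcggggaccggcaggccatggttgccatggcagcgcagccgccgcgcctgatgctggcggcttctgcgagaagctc
Dleu2 (chr14:61682324-61682623, minus strand): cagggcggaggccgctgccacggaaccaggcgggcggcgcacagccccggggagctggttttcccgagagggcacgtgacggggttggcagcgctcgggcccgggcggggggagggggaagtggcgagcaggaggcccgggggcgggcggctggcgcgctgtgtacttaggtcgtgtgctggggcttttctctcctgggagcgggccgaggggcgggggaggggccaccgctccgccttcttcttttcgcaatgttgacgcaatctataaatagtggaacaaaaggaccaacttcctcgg
E130102H24Rik (chr4:101356199-101356498, minus strand): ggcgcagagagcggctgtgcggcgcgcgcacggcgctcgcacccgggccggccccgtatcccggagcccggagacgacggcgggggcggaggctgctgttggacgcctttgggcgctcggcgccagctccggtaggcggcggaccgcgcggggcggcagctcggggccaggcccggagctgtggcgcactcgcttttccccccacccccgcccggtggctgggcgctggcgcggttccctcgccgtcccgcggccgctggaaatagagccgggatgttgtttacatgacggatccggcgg
Gm4258 (chr1:137898217-137898516, plus strand): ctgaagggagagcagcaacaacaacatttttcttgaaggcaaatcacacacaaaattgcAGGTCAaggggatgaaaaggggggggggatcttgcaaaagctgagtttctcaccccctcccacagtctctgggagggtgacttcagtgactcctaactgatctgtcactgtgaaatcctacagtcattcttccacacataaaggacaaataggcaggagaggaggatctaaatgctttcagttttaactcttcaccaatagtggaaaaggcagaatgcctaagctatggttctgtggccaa
Gm34507 was bound in all 6 lists, and its window was 79.3% G+C with 49 CpG dinucleotides. The windows of 1700064M15Rik, Dleu2 and E130102H24Rik held 27, 29 and 47 CpGs. Gm4258 stood apart with 46.0% G+C and 0 CpGs, and it was the one window of the 5 that held the hexamer.

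The microRNA genes with gene-distant peaks of 4 or 5 lists within 10 kb are shown by 1 mature sequence each from RefSeq, except for 1 gene that is not shown, with the seed (bases 2 to 8) in capitals. Mir181a-1 and Mir181b-1, among several genes with peaks of 3 lists, were added after their values had been seen because they share a seed. The seed pairs with target mRNAs.
mmu-miR-9-5p: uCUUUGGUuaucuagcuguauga
mmu-miR-9b-3p: aUACAGCUagauaaccaaaga
mmu-miR-101a-3p: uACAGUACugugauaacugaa
mmu-let-7c-5p: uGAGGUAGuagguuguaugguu
mmu-miR-99a-5p: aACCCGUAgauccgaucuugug
mmu-miR-125b-5p: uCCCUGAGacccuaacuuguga
mmu-miR-6390: gAAUUGAUcaggauguaacca
mmu-miR-181a-5p: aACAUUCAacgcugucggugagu
mmu-miR-181b-5p: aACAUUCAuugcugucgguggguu
Both miR-181 species share the seed ACAUUCA and come from neighbouring genes. The same miR-125b-5p is made from Mir125b-1 on chromosome 9 and from Mir125b-2 on chromosome 16, and both genes had gene-distant peaks in 4 lists.

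Gene-distant peaks were a minority in every list. In differentiated cells they made up 12.1% of Qki-5 peaks (3649 of 30175, exact Clopper-Pearson 95% interval 11.7 to 12.5%). For PPARb the share was 11.6% (3063 of 26404, interval 11.2 to 11.99%), and for HA it was 10.97% (3296 of 30037, interval 10.6 to 11.3%). Pol II had 6.44% (854 of 13267, interval 6.03 to 6.87%). In isolated cells the share was 4.16% of Qki-5 peaks (348 of 8375, interval 3.74 to 4.61%) and 3.24% of PPARb peaks (45 of 1391, interval 2.37 to 4.31%). The intervals of the 3 factor lists in differentiated cells therefore lay above that of Pol II, and those of both isolated-cell lists lay lower still. The second part depended on the peak cut: at 8-fold over input or more, the intervals of both isolated-cell lists overlapped that of Pol II. Leaving out peaks within 1000 bp of a gene end narrowed the spread: gene-distant peaks were then 18%, 17.45% and 16.7% of the rest for the 3 factor lists, 14.7% for Pol II, and 10.5% and 9.47% for Qki-5 and PPARb in isolated cells.

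Gene-distant ground covered 1017 Mb, or 37.6% of the 2703 Mb between the first and last annotated or called position of each chromosome. Qki-5 peaks in differentiated cells numbered 3.59 per Mb of gene-distant ground against 15.7 per Mb elsewhere. Pol II had 0.840 against 7.36 peaks per Mb, and isolated-cell Qki-5 had 0.342 against 4.76. Density went on falling with distance inside the gene-distant ground. For Qki-5 in differentiated cells it was 6.17 peaks per Mb at 50 to 100 kb, 4.70 at 100 to 200 kb, 2.97 at 200 to 500 kb and 0.910 beyond 500 kb. The median gene-distant peak lay 118 to 160 kb from its nearest gene, by list, and the farthest lay 2082 kb away. Just inside the threshold, at 50 to 55 kb, lay 193 Qki-5 peaks of median height 10.5, and just outside it, at 45 to 50 kb, 203 of median height 8.85. The same 2 windows held 63 and 46 Pol II peaks, with medians of 7.23 and 6.83, and 31 and 21 isolated-cell Qki-5 peaks, with medians of 6.87 and 7.33.

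**Figure D1:**
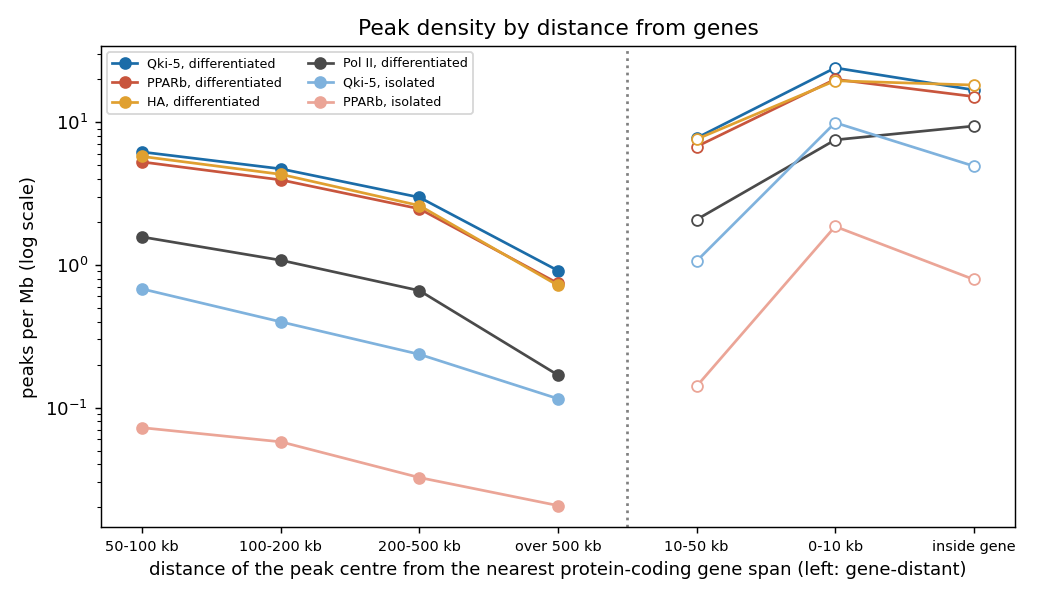
Peaks per Mb of ground (log axis) by distance from the nearest protein-coding gene, with gene-distant classes left of the dotted line and classes nearer to genes right of it; each line is 1 of the 6 peak lists. Every list thins out from 50 kb outward, and Qki-5 in differentiated cells goes down to 0.910 peaks per Mb beyond 500 kb.

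Chromosomes differed widely. Chromosome 13 had 8.95 gene-distant sites per Mb of its gene-distant ground and chromosome 5 had 4, while X had 1.45 and Y had 0.153. Repeated sequence, to which short reads cannot be placed uniquely, was not measured in these files, so its part in these densities was not tested.

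Peak height is the authors' tag count per 10000000 tags and is compared within a list only. Gene-distant peaks were lower than the other peaks of the same list in all 6. Their median height was 9.40 for Qki-5 in differentiated cells against 11.1 for other peaks, 8.46 against 9.79 for PPARb, 11.1 against 14.3 for HA, and 6.83 against 9.24 for Pol II. In isolated cells it was 6.87 against 9.62 for Qki-5 and 7.07 against 8.16 for PPARb. These isolated-cell values lie near the calling floor. The median gene-distant peak held 13 tags for PPARb and 15 for Qki-5, at a threshold of 13 tags in both lists. Peaks at gene ends were the tallest class. Qki-5 peaks in differentiated cells within 1000 bp of a gene end had a median of 13.8, whereas those outside genes up to 50 kb away had 9.40 and those inside genes 9.96. Enrichment over input followed the same order in differentiated cells, with medians of 9.80 against 11.55 for Qki-5 and 8.01 against 10.3 for Pol II. It did not in isolated cells, where the median was 6.71 in both classes of Qki-5 and 7.97 against 5.98 for PPARb.

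The tallest peaks split the factors. Of gene-distant PPARb peaks in differentiated cells, 8.55% stood in the tallest 10% of their list, against 10.3% of other peaks, and for HA the values were 7.92% against 11.4%. For Qki-5 they were 4.88% against 11.2%, for Pol II 1.52% against 11.2%, for isolated-cell Qki-5 0.862% against 11.9%, and for isolated-cell PPARb 4.44% against 14.3%. Other peaks include those at gene ends. Shares there were 11.3% for PPARb, 14.7% for HA, 18.9% for Qki-5 and 15.4% for Pol II in differentiated cells. Peaks inside genes showed the same split, at 9.51%, 9.455%, 6.62% and 5.15% in that order. The split was thus not particular to gene-distant peaks, although their share was the lowest of any position class in each list. Among the 1000 tallest peaks of a list, a cut chosen after seeing the data, gene-distant peaks numbered 106 for PPARb and 97 for HA, but 40 for Qki-5, 7 for Pol II and 3 for isolated-cell Qki-5. Isolated-cell PPARb, whose whole list holds 1391 peaks, had 25, more than Pol II or isolated-cell Qki-5.

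**Figure D2:**
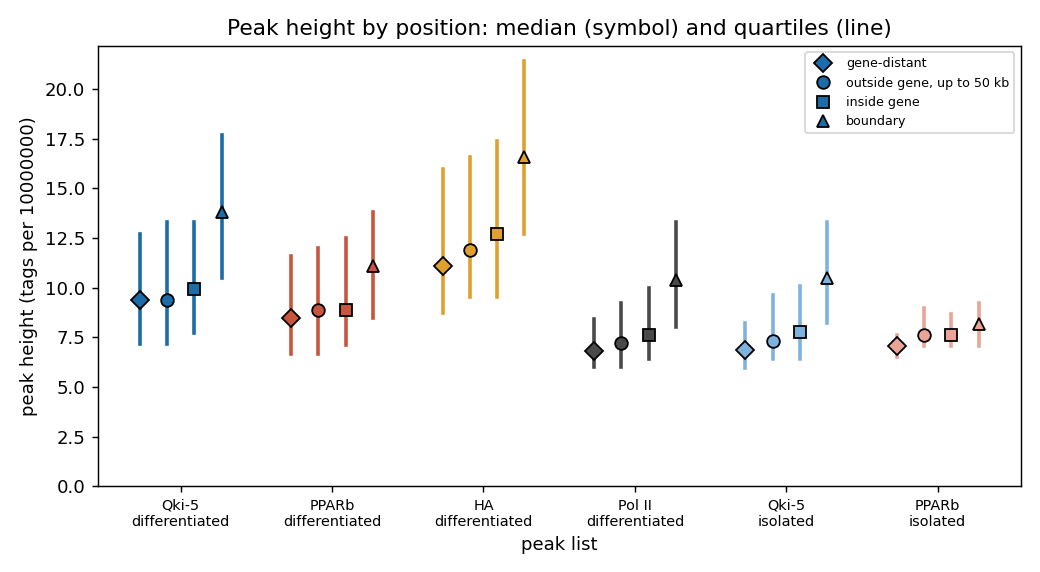
Peak height in tags per 10000000 for each list (axis from 0), with gene-distant peaks leftmost in each set of 4 position classes; symbols are medians and lines run between the quartiles. In every list the peaks within 1000 bp of a gene end have the highest median (13.8 for Qki-5 in differentiated cells), and gene-distant peaks sit near the other peaks away from gene ends.

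Overlap between the lists was counted when peaks shared at least 1 bp. In differentiated cells 2162 of 3649 gene-distant Qki-5 peaks met a PPARb peak (59.2%, interval 57.6 to 60.9%), against 65.1% of all Qki-5 peaks. An HA peak was met by 59.6% of gene-distant Qki-5 peaks against 66.6% of all, and a Pol II peak by 19.5% against 32.5%. Of gene-distant PPARb peaks, 70.6% met Qki-5 against 74.4% of all, 66.6% met HA against 73.5%, and 22.6% met Pol II against 36.5%. Outside genes up to 50 kb away, Qki-5 peaks met PPARb at 59.8%, HA at 61.4% and Pol II at 21.4%. PPARb peaks there met Qki-5 at 70.6%, HA at 70.3% and Pol II at 25.1%. These intervals overlapped those of gene-distant peaks, except for PPARb with HA. Of gene-distant HA peaks, 66.0% met Qki-5 against 67.0%, with intervals that overlapped, 62.0% met PPARb against 64.6%, and 20.4% met Pol II against 33.3%. For Pol II the gene-distant share was the higher one: 713 of 854 met a Qki-5 peak (83.5%, interval 80.8 to 85.9%) against 73.8% of all Pol II peaks. PPARb was met by 80.9% against 72.6%. HA was met by 78.6% against 75.3%, with intervals that overlapped (75.7 to 81.3% and 74.6 to 76.05%). All 3 partners were present at 66.9% of gene-distant Pol II peaks against 55.3% of other Pol II peaks. Most of this gap lay between gene ends and all other positions. Pol II peaks outside genes up to 50 kb away met Qki-5 at 79.4% (interval 77.2 to 81.5%, which overlaps that of gene-distant peaks), PPARb at 78.7% and HA at 78.9%, those inside genes met Qki-5 at 77.8%, and those at gene ends at 69.8%. The peak call was made against the same input in all 4 lists, and its part in these shared positions was not tested.

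Overlap depended on height, and at matched height the gene-distant peaks of Qki-5 were not set apart in their overlap with PPARb. In the lowest height quartile of the Qki-5 list 35.6% of gene-distant peaks met PPARb, against 35.4% of peaks at gene ends. The next quartiles had 64.7% against 64.1% and 78.9% against 77.1%, and the tallest had 90.6% against 87.0%. PPARb peaks differed in their overlap with HA, at 42.6% against 60.1% at gene ends in the lowest quartile and 68.4% against 77.3% in the next. The upper quartiles had 84.4% in both classes, then 92.6% against 89.9%. PPARb peaks outside genes up to 50 kb away met HA at 46.3% and 71.6% in the lower quartiles, with intervals that overlapped those of the gene-distant peaks. For Pol II the higher overlap with Qki-5 remained in the lower 3 quartiles, at 80.4% against 68.1% at gene ends, 88.5% against 68.3%, and 87.7% against 72.4%. Pol II peaks outside genes up to 50 kb away had 75.6%, 84.05% and 87.8% in these quartiles, with intervals that overlapped those of the gene-distant peaks. In the tallest quartile it was 78.0% of 41 gene-distant peaks (interval 62.4 to 89.4%) against 69.4%, which counting error does not separate. Qki-5 height at gene-distant sites was also higher with more partners: the median was 7.19 for 958 peaks with no partner, 8.85 with 1, 11.1 with 2 and 14.4 for 569 peaks with all 3. Spearman's rank correlation between Qki-5 and PPARb heights over 2162 shared gene-distant peaks was 0.72, and that between Qki-5 and Pol II over 713 was 0.55. Outside genes up to 50 kb away those values were about the same, 0.72 and 0.56. Inside genes they were 0.72 and 0.43, and at gene ends 0.68 and 0.25. These are descriptions across peaks of the same libraries, which share sequence, mappability and input.

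**Figure D3:**
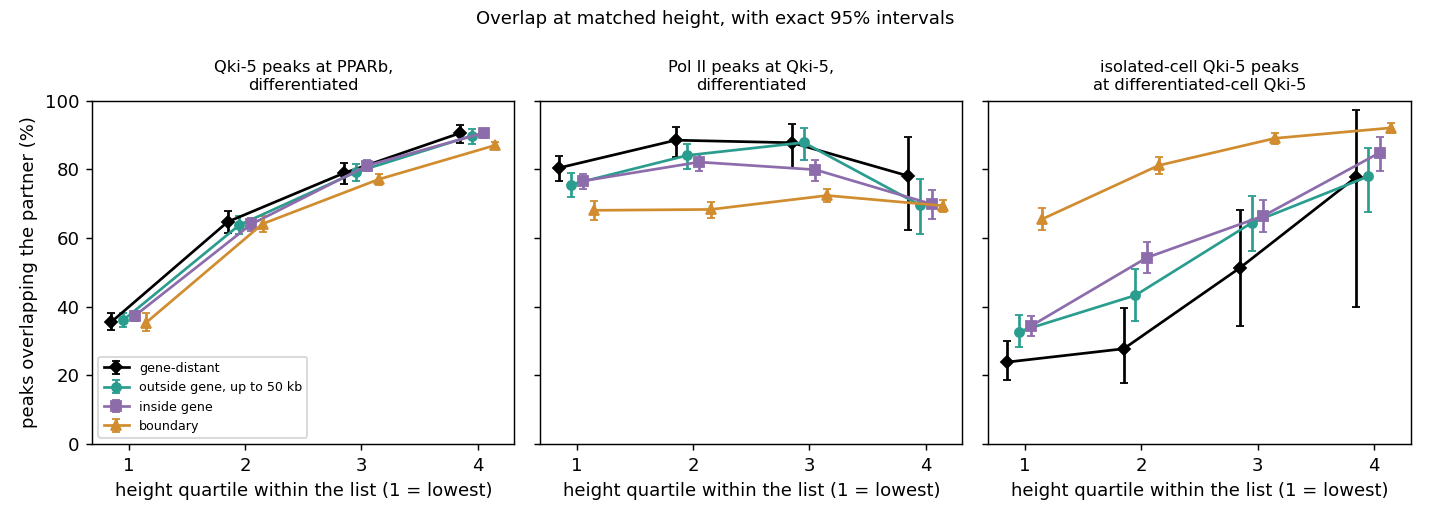
Share of peaks that overlap a partner list (axis 0 to 100%) by height quartile within the list, for gene-distant peaks (black diamonds, leftmost) and 3 classes nearer to genes; bars are exact 95% intervals. Qki-5 overlap with PPARb follows height alike in all classes (35.6 to 90.6% for gene-distant peaks), Pol II overlap with Qki-5 is highest away from gene ends, and isolated-cell Qki-5 overlap with differentiated-cell Qki-5 is lowest in gene-distant peaks for the lower quartiles.

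The 2 cell sources shared few gene-distant positions. Of 348 gene-distant Qki-5 peaks in isolated cells, 101 met a Qki-5 peak of differentiated cells (29.0%, interval 24.3 to 34.1%), against 69.5% of all isolated-cell Qki-5 peaks. The gap to peaks inside genes and at gene ends remained at matched height in the lower quartiles. In the lowest quartile 23.9% of gene-distant peaks were shared, against 34.4% of peaks inside genes and 65.5% at gene ends. In the next quartile the shares were 27.8%, 54.3% and 81.1%. Peaks outside genes up to 50 kb away had 45.25% over all heights (interval 41.85 to 48.7%). In these quartiles they had 32.8% and 43.3%, with intervals that overlapped those of the gene-distant peaks. The upper quartiles had 51.4% for gene-distant peaks against 64.4% for that class, then 77.8% against 77.9%, also with overlapping intervals. The other differentiated-cell lists were met less as well: 27.9% of gene-distant isolated-cell Qki-5 peaks met PPARb against 65.0% of all, 29.6% met HA against 65.5%, and 13.2% met Pol II against 44.8%. For PPARb, 16 of 45 gene-distant isolated-cell peaks met a differentiated-cell PPARb peak (35.6%, interval 21.9 to 51.2%), against 74.3% of all. Of the same 45, 33.3% met differentiated-cell Qki-5 against 75.9% of all, 37.8% met HA against 72.2%, and 17.8% met Pol II against 49.2%. Within isolated cells, 19 of 45 gene-distant PPARb peaks met Qki-5 (42.2%, interval 27.7 to 57.9%), against 76.3% of all, and 5.46% of gene-distant Qki-5 peaks met PPARb against 12.7%. The isolated-cell lists are shorter, although the total tags of their libraries lay within the range of the differentiated-cell libraries, and a position without a called peak there is not shown to be unbound. Strain, culture and the introduced PPARb also differ between the sources and cannot be told apart from the cell source.

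No peak of any differentiated-cell list overlapped 211 of the 348 gene-distant Qki-5 peaks of isolated cells (60.6%, interval 55.3 to 65.8%), against 18.6% of the other isolated-cell Qki-5 peaks. Those other peaks varied by position: 5.72% lacked such an overlap at gene ends, 39.45% inside genes and 43.8% outside genes up to 50 kb away. The 211 gene-distant peaks were low, with a median height of 6.41 against 7.33 for those that did meet a differentiated-cell peak. Their median enrichment over input was 7.27 against 6.71. One with a height of 12.8 lay 831 kb from Tenm2, which encodes the adhesion protein teneurin-2. A peak 167 kb from Zeb2, a transcription factor of oligodendrocyte differentiation, reached 11.5. One position 230 kb from the kinase gene Sgk1 was called in both isolated-cell lists, with Qki-5 at 10.5 and PPARb at 8.70, and in none of the differentiated-cell lists.

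Merged into sites, 2452 of 5537 positions were called in 1 list, 1198 in 2, 1199 in 3, 638 in 4, 44 in 5 and 6 in all 6. The commonest combination was Qki-5, PPARb and HA in differentiated cells without Pol II, at 1072 sites (19.4%). Qki-5 alone followed with 949 sites, HA alone with 721, all 4 differentiated-cell lists with 596 and PPARb alone with 498. Isolated-cell Qki-5 alone accounted for 202 sites. A differentiated-cell peak was present at 5307 sites, an isolated-cell peak at 373, and both at 143.

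**Figure D4:**
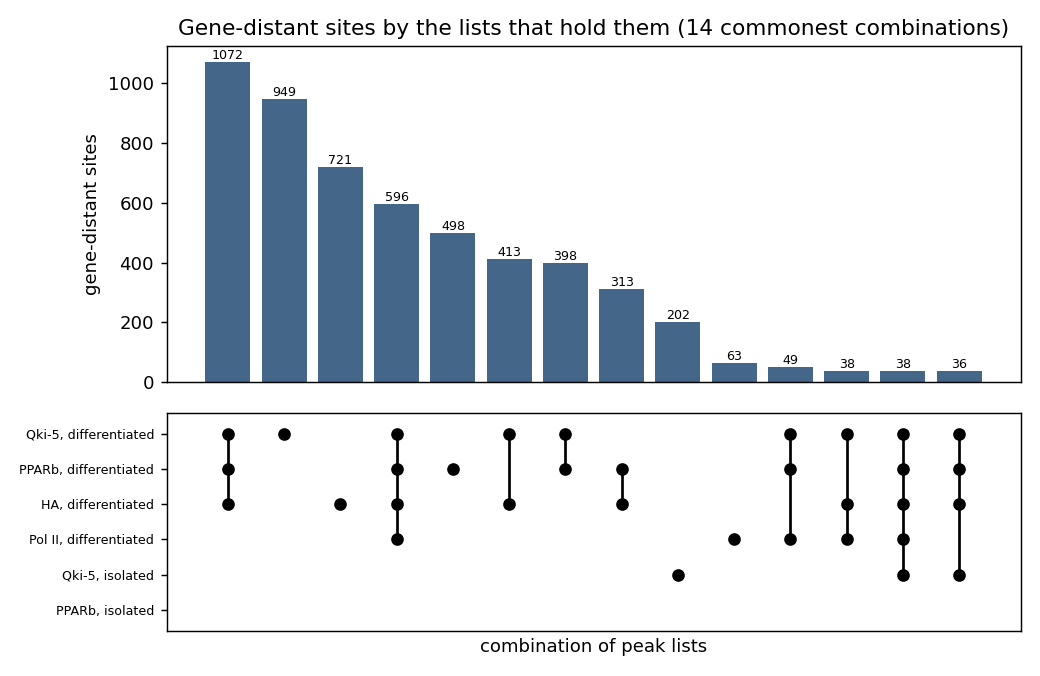
Number of gene-distant sites (bars, axis from 0) for each of the 14 commonest combinations of peak lists; filled circles under a bar name the lists that hold a peak there. The largest bar, 1072 sites, combines Qki-5, PPARb and HA of differentiated cells, and the commonest bar with an isolated-cell list is Qki-5 alone, 202 sites.

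The 6 sites called in every list show how heights run at the most shared positions. At chr2:116975607-116976011, between Tmco5 and the Ras-MAPK inhibitor gene Spred1, the lists gave Qki-5 at 23.2, PPARb at 16.0, HA at 45.9 and Pol II at 12.5 in differentiated cells, and Qki-5 at 10.5 and PPARb at 8.70 in isolated cells. At chr14:76255089-76255438, between Nufip1 and the leucine zipper gene Tsc22d1, they were 23.2, 24.5, 41.2, 11.7, 14.7 and 8.16 in the same order of lists. Levels of different antibodies cannot be ranked against each other. Near Zmiz1, a transcriptional coactivator gene, chr14:25318014-25318394 lay inside the antisense transcript gene Zmiz1os1 and had 17.1, 18.7, 38.0, 8.04, 9.16 and 9.24. The start of Gm34507, printed above, carried the site 86.0 kb from Arid1b, a subunit gene of the BAF chromatin remodelling complex, with 18.3, 16.9, 35.6, 12.9, 13.3 and 7.61. The remaining 2 lay at chr8:20122183-20122495, 187 kb from 9530057J20Rik, and at chr10:105638978-105639475, 64.7 kb from Tmtc2. The site near Tmtc2 had the lowest HA height of the 6, 18.2.

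Single sites led each list. The tallest gene-distant peak for HA, and the 6th tallest HA peak of any position, was the start of the lncRNA 1700064M15Rik between Foxn3 and Efcab11. Its HA height was 93.5 (exact Poisson 95% interval 77.4 to 112) at 355-fold over input, with 0.3 input tags, and the other lists gave Qki-5 at 16.0, PPARb at 23.6, Pol II at 6.83 and isolated-cell Qki-5 at 8.24. HA stood far above its own list's median there, while Pol II was at the median of its gene-distant peaks. The site 154 kb from Grin2b, an NMDA receptor subunit gene, had HA at 61.0, PPARb at 23.6 and Qki-5 at 8.85, and no Pol II peak. For PPARb the tallest was 82.0 kb from Rps24, a ribosomal protein gene, with a height of 30.7. Next came a site inside the microRNA host gene Mir99ahg, 284 kb from the deubiquitinase gene Usp25, with PPARb at 28.9 and Qki-5 at 27.7.

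The tallest gene-distant Qki-5 peak, on chromosome Y, had a height of 82.4 but an enrichment of 4.74, with 31.4 input tags. It was called again by HA, with a height of 83.2 and an enrichment of 4.78, and in no other list. A chromosome 8 site 61.6 kb from Gm15319 came second for Qki-5 with 35.4, and it had 6.7 input tags and a 9.60-fold enrichment. Whether extra copies of the sequence raise both input and antibody tags at these positions was not tested. Next was chr15:62903118-62903358, with Qki-5 at 32.6, PPARb at 20.5, HA at 34.1 and Pol II at 12.1, and 3.8 input tags at Qki-5. It lies 913 kb from Myc, the growth-control transcription factor gene, and 873 kb from Gsdmc.

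Pol II led at other places. Its tallest gene-distant peak, 34.6 at chr15:85671206-85671406, lay between Wnt7b and Ppara, 63.6 kb from Ppara, the gene of a PPAR relative that drives fatty acid oxidation. No other list had a peak at that position. The next lay 226 bp from the start of the lncRNA C130071C03Rik near the transcription factor gene Mef2c, with Pol II at 30.9, PPARb at 10.7 and HA at 16.6 and no Qki-5 peak. In isolated cells Qki-5 was tallest 104 kb from Zfat, a zinc finger gene, with 18.8, and this position had 21.6 for Qki-5 in differentiated cells. The isolated-cell PPARb list was led by a site of 11.4 inside the non-coding gene 8430430B14Rik, in the gap from Haao to Zfp36l2, and by one of 10.3 that lay 143 kb from the corepressor gene Irf2bp2.

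Gene-distant sites gathered in certain gaps between neighbouring genes. Of 2981 stretches of gene-distant ground, 1353 gaps held at least 1 site, and the 128 gaps with 10 or more held 1910 sites. The gap from Agtr1b to Tbl1xr1, a subunit gene of the NCoR corepressor complex, held 37 sites in 1.71 Mb. From Myc to Gsdmc there were 33, and from Klf4, a pluripotency and differentiation factor gene, to Actl7b there were 29. The gap from Haao to Zfp36l2, whose product binds AU-rich mRNA ends, held 23 sites in 0.335 Mb, or 97.9 per Mb of its gene-distant part, against 5.44 per Mb over all gene-distant ground. The gap from Sox9 to Slc39a11 had 70.0 per Mb of its gene-distant part. These gaps were picked for their counts, which are a description.

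The gene that encodes Qki-5 itself, Qk, borders one of the crowded gaps. Between Pabpc6 and Qk, 0.537 Mb apart on chromosome 17, lay 24 sites, or 54.95 per Mb of the gene-distant part of the gap. Differentiated cells had a peak at 22 of them and isolated cells at 4, with 13 Qki-5, 13 PPARb, 16 HA and 7 Pol II sites in differentiated cells and 2 for each antibody in isolated cells. Most lay on the side of Pabpc6. At chr17:9725888-9726232, at the start of the lncRNA Gm34684 and 480 kb from Qk, the lists gave Qki-5 at 23.8, PPARb at 16.9 and HA at 29.3. Pol II had a peak of 10.4 beside it, at chr17:9725672-9725872, 291 bp from the same start and counted as a separate site. At the start of a second lncRNA, 4930452A19Rik, 430.5 kb from Qk, Qki-5, PPARb and HA had 18.3, 18.2 and 30.1, with 8.84 for Pol II. The site held by most lists, at chr17:9879571-9880021, had Qki-5 at 14.4, PPARb at 16.9, HA at 15.8, Pol II at 6.83 and isolated-cell PPARb at 7.61. This gap was singled out after its values were seen, because Qk makes the immunoprecipitated protein.

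Sites also lay close to each other. With neighbours under 20 kb apart joined, 2991 sites (54.0%) fell into 1101 groups of 2 or more, and 91 groups held 5 or more. The largest group had 14 sites over 103 kb between Septin9 and Tnrc6c, with 10 HA, 7 Qki-5, 6 PPARb and 2 Pol II sites in differentiated cells and 2 Qki-5 sites in isolated cells. Next were 12 sites over 86.4 kb between Sox9, a transcription factor gene of glial precursors, and Slc39a11, and 12 sites over 59.2 kb between Cstad and 1700001O22Rik.

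The nearest protein-coding genes were many. Of 4753 genes that border gene-distant ground, 1763 (37.1%) were the nearest gene of a differentiated-cell site and 290 (6.1%) of an isolated-cell site. The 8 genes nearest to most sites were Tbl1xr1 with 35, Zfp608 with 31, Myc with 29, Pabpc6 with 23, the neural stem cell factor gene Sox2 with 22, and Cd83, the actin regulator gene Marcks and Usp25 with 20 each. Together they took 200 sites, or 3.61%. Being nearest does not show that a site acts on a gene.

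Of 55 transcription factor genes of the oligodendrocyte lineage and neural stem cells that border such ground, 45 (81.8%) were nearest to a differentiated-cell site, against the 37.1% of all bordering genes, and 9 (16.4%) to an isolated-cell site, against 6.1%. They had 278 sites, a median of 4 per gene, against a median of 0 over all 4753. Their gene-distant ground was wide, 25.7 Mb, and its density of 10.8 sites per Mb stood beside 5.44 over all. The site 206 kb from Sox2 had Qki-5 at 17.7, PPARb at 12, HA at 22.2, Pol II at 11.7 and isolated-cell Qki-5 at 9.16. Near Hes1, a Notch target that holds back differentiation, the start of 4632428C04Rik had Qki-5 at 23.8, PPARb at 14.2, HA at 41.2 and Pol II at 9.65, without a peak in isolated cells. The site 159 kb from Nfia, a glial fate factor gene, had 19.4, 17.8, 34.9 and 8.44 in the same 4 lists.

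Growth factor and precursor genes were nearest to a differentiated-cell site in 20 of 27 cases (74.1%), against the 37.1% of all bordering genes. Their density, 5.47 sites per Mb, was about that of all gene-distant ground, 5.44. A site 80.7 kb from Ptprz1, a receptor phosphatase gene of oligodendrocyte precursors, had Qki-5 at 18.8, PPARb at 15.1, HA at 19.8, Pol II at 10 and isolated-cell Qki-5 at 5.50. One 55.7 kb from Pdgfa, the mitogen gene for precursors, had 17.7, 14.7, 26.9 and 7.64 in the 4 differentiated-cell lists. Few myelin genes border gene-distant ground: 9 of 33. Of these, 5 (55.6%) were nearest to a differentiated-cell site, against 37.1% of all bordering genes. Their density was 13.5 sites per Mb over 1.04 Mb, against 5.44 over all. Near Car2, a carbonic anhydrase gene of oligodendrocytes, the lists gave Qki-5 at 19.9, PPARb at 13.8 and HA at 15.8, and near Bcas1 they were 12.7, 9.35 and 15.1, in both cases without Pol II.

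Of 18 PPAR target and lipid genes next to such ground, 8 (44.4%) were nearest to a differentiated-cell site and 1 to an isolated-cell site (5.56%), shares near the 37.1% and 6.1% of all bordering genes. Their ground was narrow, 1.66 Mb, and held 13.8 sites per Mb against 5.44 over all, without matching for distance from genes. The median was 0 sites per gene, as over all bordering genes. A site inside the lncRNA Mexis, 104 kb from the cholesterol exporter gene Abca1, had Qki-5 at 12.7, PPARb at 12.5, HA at 14.3 and Pol II at 5.63. The site 345 kb from Ppargc1a, a coactivator gene of mitochondrial biogenesis, had 16.6, 14.2 and 18.2 for the 3 factors and no Pol II peak. Adhesion and axon guidance genes border the widest ground, 72.6 Mb for 58 genes. There 34 (58.6%) were nearest to a differentiated-cell site, against 37.1% of all bordering genes. Yet their density was 1.34 sites per Mb, under the 5.44 of all gene-distant ground.

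Among 15 RNA-binding protein genes, 12 (80.0%) were nearest to a differentiated-cell site, against 37.1% of all bordering genes, and 3 (20%) to an isolated-cell site, against 6.1%. Their density of 5.58 sites per Mb was about the 5.44 of all gene-distant ground. The site 87.2 kb from Zfp36l2 had Qki-5 at 20.5, PPARb at 19.1 and HA at 50.7 in differentiated cells, and Qki-5 at 9.16 and PPARb at 6.53 in isolated cells. Of 20 immediate-early and stress genes, 15 (75%) were nearest to a differentiated-cell site, against 37.1% of all bordering genes. An isolated-cell site was nearest to 5 (25%), against 6.1%. They had 15.3 sites per Mb against 5.44 over all, and of their 93 sites Myc had 29 and Gadd45g 16. A site 54.5 kb from the growth-arrest gene Gadd45g had Qki-5 at 22.1, PPARb at 22.7, HA at 30.1 and Pol II at 11.7. Markers of other brain cells did not stand at 0: 7 of 14 such genes (50.0%) were nearest to a differentiated-cell site, against 37.1% of all, and 4 (28.6%) to an isolated-cell site, against 6.1%. Their density, 17.65 sites per Mb over 2.44 Mb, was the highest of the 8 gene lists. It came from few genes: of the 43 sites, Ptprc had 12, Cdh5 10, Gja1 10 and Slc1a3 7. A site 70.6 kb from the astrocyte transporter gene Slc1a3 had 12.7, 14.2, 19.8 and 5.63 in the 4 differentiated-cell lists. The sites near Cdh5, an endothelial cadherin gene, had 21.0, 15.1, 30.1 and 11.3. Whether other cells contributed to the libraries was not tested. These gene lists were compared without regard to the ground each gene borders, other than by the densities given. The densities were not matched for distance from genes, and peak density falls with distance inside gene-distant ground. Lists with narrow and with wide ground are therefore not compared at like distances.

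Genes without protein products occupy part of this ground. Their spans cover 122 Mb, 12% of it, and held 24.2% of gene-distant Qki-5 peaks, 24.65% of PPARb, 25.8% of HA and 29.9% of Pol II peaks in differentiated cells, and 26.7% and 22.2% of Qki-5 and PPARb peaks in isolated cells. Starts of lncRNAs held more. On the 20 chromosomes with gene-distant starts in the RefSeq start table (chromosome 18 was not used here), windows of 1000 bp on each side of a start cover 0.620% of gene-distant ground. They held 4.83% of gene-distant Qki-5 peaks (168 of 3481), 5.40% of PPARb (158 of 2927), 5.37% of HA (169 of 3145) and 7.69% of Pol II (63 of 819). In isolated cells they held 8.84% of Qki-5 peaks (29 of 328, interval 6.001 to 12.4%) and 3 of 44 PPARb peaks. These shares were 7.79 to 14.3 times the share of ground.

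**Figure D5:**
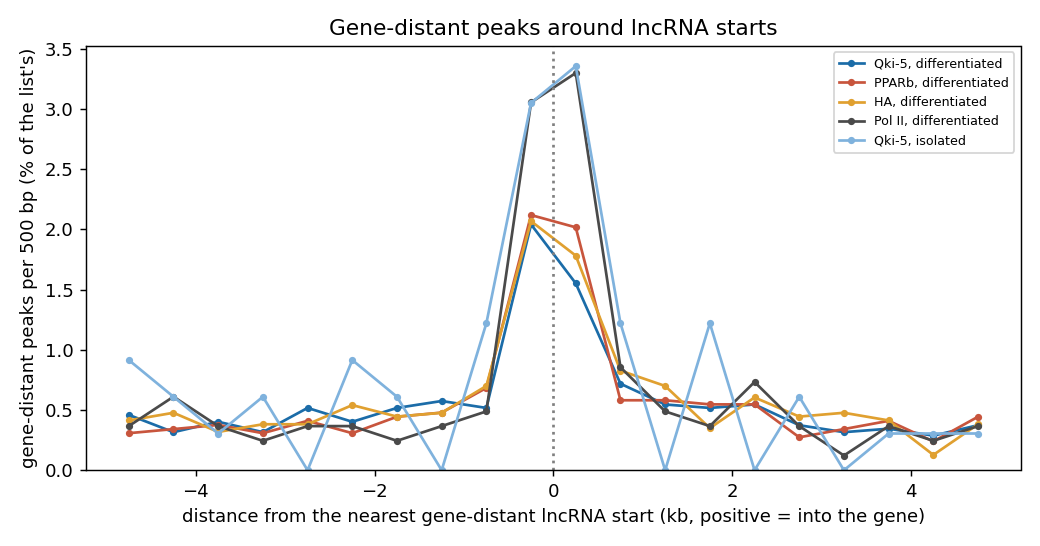
Gene-distant peaks per 500 bp bin, as a percent of each list's gene-distant peaks (axis from 0), by distance from the nearest gene-distant lncRNA start; positive distances run into the gene, and each line is 1 of 5 lists (isolated-cell PPARb, with 44 peaks, is left out). All 5 rise in the bins next to the start, to 3.05 and 3.30% for Pol II, and isolated-cell Qki-5 is the most uneven with 328 peaks.

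Seen from the genes, binding at these starts was uncommon. Of 2809 gene-distant lncRNA genes, 163 (5.80%) had a differentiated-cell Qki-5 peak within 1000 bp of a start, against 16.1% of all 9533 lncRNA genes. The counts were 155 (5.52%) for PPARb against 14.5%, 167 (5.95%) for HA against 16.5%, and 66 (2.35%) for Pol II against 10.6%. In isolated cells they were 28 (0.997%) for Qki-5 against 7.14% and 3 (0.107%) for PPARb against 1.23%. The AGGTCA hexamer, read on both strands, was present in 24 of 157 gene-distant lncRNA promoters that overlapped a gene-distant peak (15.3%, interval 10.1 to 21.9%). Without a peak 19.5% held it, and over all 32851 promoters the share was 16.3%, so the bound share lay within counting error of both. The repeat AGGTCANAGGTCA, with 1 base between the hexamers, occurred in 0 of the 157 (which allows a share of up to 1.91%) and in 13 of all promoters. Bound windows had a median of 50.7% G+C and 5 CpGs, against 45.3% and 3 without a peak.

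In all 6 lists, gene-distant microRNA genes had a gene-distant peak within 10 kb less often than microRNA genes at large had any peak. The count of any peak is the wider one. Neighbouring microRNA genes count separately in these shares, such as the run on chromosome 12 from Mir379 to Mir3072, without a peak in any list. Of 174 such genes, 34 (19.5%) had a gene-distant Qki-5 peak of differentiated cells within 10 kb, against 39.7% of all 1228 microRNA genes with any Qki-5 peak. PPARb had 30 (17.2%) against 37.9%, HA 25 (14.4%) against 39.0%, and Pol II 17 (9.77%) against 27.0%. Isolated cells had 7 (4.02%) against 20.6% for Qki-5, and 0 of 174 (which allows a share of up to 1.72%) against 4.97% for PPARb. Near Mir9-2, in the lncRNA C130071C03Rik and the source of a neural miR-9, the tallest peaks within 10 kb had heights of 19.4 for Qki-5, 12.9 for PPARb, 19.8 for HA, 20.5 for Pol II and 10.1 for isolated-cell Qki-5. Mir101a, whose host E130102H24Rik is printed above, had 18.8, 15.1, 28.5 and 15.3 in the 4 differentiated-cell lists and 8.70 for isolated-cell Qki-5. Gm51268, the gene of miR-9b-3p, overlaps Mir9-2 on the other strand and shares its peaks. Mir6390, inside Gm6145, had 16.0, 17.8, 22.2 and 9.24 in the 4 differentiated-cell lists. Mir99a and Mirlet7c-1 lie side by side and share the same peaks, with Qki-5 at 17.7, PPARb at 11.6, HA at 14.3 and Pol II at 11.3. At Mir125b-1, in Mir100hg, they were 15.5, 14.2, 16.6 and 6.83. Mir181a-1 and Mir181b-1 had Qki-5, PPARb and HA peaks of 9.96, 8.46 and 9.51 but no Pol II peak within 10 kb.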

How the data were processed

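The data are 6 peak lists from 6 antibody libraries and 2 inputs of mouse oligodendrocytes, with 1 library per group. Per the submitters' processing notes reads were handled on build mm10 with HOMER 4.10.1, and with Bowtie 1.2.2, Trim Galore 0.4.4, bcl2fastq 2.19.1.403 and SAMtools 1.8, whose order is not given. Per the file headers, HOMER called peaks of 200 bp against the input of the same cells, at a false discovery rate of 0.001, at least 4-fold over input and 4-fold over the local 10000 bp. Libraries held 12624236 to 24880851 tags, and thresholds lay at 10 to 14 tags per peak.

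Peak height is the authors' deposited signal, a coverage value in tags per 10000000. The enrichment over input and over local background are ratios (fold) as deposited by the authors. The focus ratio, a fraction, and total tag counts are also as deposited; for PPARb and for Pol II in differentiated cells, total tags are a signal the authors scaled to the input, per the file headers. Tag directory names of the differentiated-cell Qki-5 and the isolated-cell input libraries hold the word merge, so pooling of runs or samples there is possible and not given in the sources used here.

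Distances were computed from peak centres to RefSeq protein-coding spans (GRCm38.p6) with Python 3.11.15, numpy 2.4.6 and pandas 2.3.3. Intervals for shares are exact Clopper-Pearson (scipy 1.17.1) and those for heights exact Poisson; both cover counting error only, and tags without molecular identifiers are not independent molecules. The code for distances and peak overlaps was checked on simulated positions. With 1 library per group no test was made and no p-value given. For a count of 0, an upper limit of 3 counts was used.

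Named sites are the 3 tallest gene-distant peaks per library, the sites in 6 lists, the 8 genes nearest to most sites, the largest groups, and up to 4 members per gene list. The members and lists were chosen with earlier results of these data known. The analyses of lncRNA starts, microRNA genes, gaps between genes and height quartiles, and the sequences printed, were added after the data had been seen. Alternatives were another distance, every annotated gene, a stricter enrichment, other overlap rules and the tallest peaks. Peak sequences were not used here. One withheld item is not reported here.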

Additional observations from a re-analysis of the deposited data

How the results depend on the processing

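With 1 library per group directions had no replicate check, short lists limit what isolated cells can show, and 45 gene-distant PPARb peaks give wide intervals. No paired analysis was possible because each group has 1 library. Values run in the order Qki-5, PPARb, HA and Pol II in differentiated cells, then Qki-5 and PPARb in isolated cells, unless named. No value changed sign under the alternatives tried. Counting error covered the shift of 8 results at the larger distance and of 4 with every gene counted; the cause of the other shifts was not tested.

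Beyond 100 kb the gene-distant shares were 7.57, 7.20, 6.74, 3.82, 2.36 and 2.08%, the difference in median height was -2.01 for Pol II and -2.29 for isolated-cell Qki-5, and 64.4% of gene-distant PPARb peaks met HA. When every annotated gene counted, non-coding ones included, the shares were 3.10, 2.89, 2.52, 1.48, 0.848 and 0.935%. The interval of isolated-cell PPARb (0.4985 to 1.59%) then overlapped that of Pol II (1.28 to 1.70%). The differences in median height were then -2.25 for Qki-5, -1.78 for PPARb and -0.54 for isolated-cell PPARb, whose interval reached 0. Overlaps were then 56.3% for Qki-5 with PPARb, 60.9% for PPARb with HA, 15.4% for isolated-cell PPARb with Qki-5, and 18.3% for isolated-cell with differentiated-cell Qki-5.

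At 8-fold over input or more the shares were 10.8, 10.9, 10.1 and 5.33% in differentiated cells. In isolated cells they were 4.28% for Qki-5 (interval 3.58 to 5.07%) and 5.08% for PPARb (interval 3.09 to 7.82%). Both of these intervals overlapped that of Pol II (4.85 to 5.84%). The differences in median height were -2.20 for Qki-5, -0.85 for PPARb, -3.57 for Pol II, -2.77 for isolated-cell Qki-5 and -0.54 for isolated-cell PPARb. Overlaps were 51.9% for Qki-5 with PPARb, 63.9% for PPARb with HA, 74.6% for Pol II with Qki-5 and 19.7% for isolated-cell with differentiated-cell Qki-5. With centres within 1000 bp these 4 overlaps were 66.0, 73.5, 92.9 and 36.8%, and with at least 100 bp shared they were 47.1, 53.6, 64.6 and 20.1%. Among the 1000 tallest peaks, added after seeing the data, the shares were 4.0, 10.6, 9.7 and 0.7% in differentiated cells and 0.3 and 2.5% in isolated cells. There the order of Qki-5 against PPARb and HA turned round, as did that of isolated-cell PPARb against Pol II.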
